A study of Mus musculus with 18 samples.

Results

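Expression change between undifferentiated mouse embryonic stem cells and their day 21 outgrowths was measured on Affymetrix arrays and compared between Pax7-/- and Pax7+/+ cells. For each gene the change of Pax7-/- cells (day 21 minus day 0) was set against the change of Pax7+/+ cells over the same days, and the difference of these changes is called the interaction here. It is given on the log2 scale, where 1 stands for a 2-fold difference. A gene with a positive interaction is called higher and a gene with a negative one lower, which says nothing of its level at a single day. The comparison used 12 of the 18 arrays of the series, 3 each of Pax7-/- day 21, Pax7-/- day 0, Pax7+/+ day 21 and Pax7+/+ day 0.

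All cells had the same F1 background, C57Bl6N x 129Sv. Day 0 cells were grown undifferentiated with LIF, the cytokine that holds mouse stem cells in self-renewal. Day 21 cells were outgrowths of embryoid bodies, kept without LIF and given RA and ITS, and day 7 cells were embryoid bodies in the same medium. The labels call the arrays biological replicates without saying whether each genotype was 1 clone or several, so p-values speak only of the spread between these samples, and a clone and its genotype cannot be told apart. Pax7 encodes a paired box transcription factor with a paired domain and a homeodomain, known for its work in muscle satellite cells, the somite and the neural crest. When embryoid bodies form, their outer layer becomes primitive endoderm, whose parietal form lays down a thick basement membrane of laminin, collagen IV and nidogen and whose visceral form takes up nutrients and secretes serum proteins, while the inner cells pass through an epiblast state toward the germ layers.

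The arrays fell into 2 kinds by the spread of their values. The probe sets of 10 narrow arrays had a standard deviation of 1.37 to 1.45 log2, and those of 8 wide arrays 1.79 to 1.85. Each group held both kinds, with 2 narrow and 1 wide array in each group of the comparison except Pax7-/- day 21, which had 1 narrow and 2 wide. The kind was therefore a term of the model, and values on narrow and wide arrays are given apart below. Each gene was read by 1 probe set, and array medians lay between 4.55 and 4.97 log2. For arrays their number limits the precision, and an exact permutation test of 3 arrays against 3 could not go below p = 0.1. The Pax7 probe set had an interaction of 0.22 ± 0.33 (SE, adjusted p = 0.826), and since the position of its probes against the deletion is not stated, it checks no label. The stem cell markers Pou5f1, Nanog, Zfp42 and Esrrb all stood above the array median at day 0, and their summed intensity at day 21 was 207 on the narrow and 407 to 424 on the wide arrays of Pax7-/- cells, and 208 to 214 on the narrow and 144 on the wide arrays of Pax7+/+ cells. At day 0 that sum was 1110 to 1140 on the narrow arrays and 2060 on the wide array of Pax7-/- cells, and 838 to 940 and 1490 in Pax7+/+ cells.

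Of 22180 genes tested with limma, 412 (1.86%) had an interaction at an adjusted p under 0.05. The interaction was higher for 333 genes (1.5% of those tested) and lower for 79 (0.356%), and 156 and 43 of them exceeded 2-fold. The shares of 1.5% and 0.356% are the background for each list count given below, but they are taken over all genes. When genes with a mean value under the median were left out, 452 of the remaining 11090 were higher and 105 lower. Of the 333 and 79 genes, 331 and 70 were among these. For lists of highly expressed genes the shares over all genes are therefore too low a background. Among the higher genes the median change was 0.06 log2 in Pax7-/- cells and -0.90 in Pax7+/+ cells, with a median interaction of 0.98. In the plot of changes over time these genes lie above the diagonal. Among the lower genes the medians were 0.13 in Pax7-/- cells and 1.05 in Pax7+/+ cells, with a median interaction of -1.07. Over all genes the medians were 0 in Pax7-/- cells and 0.03 in Pax7+/+ cells. All 412 genes had the same sign on narrow and on wide arrays, against 59.3% of all genes, which is a description since both kinds of array entered the fit.

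**Figure D1:**
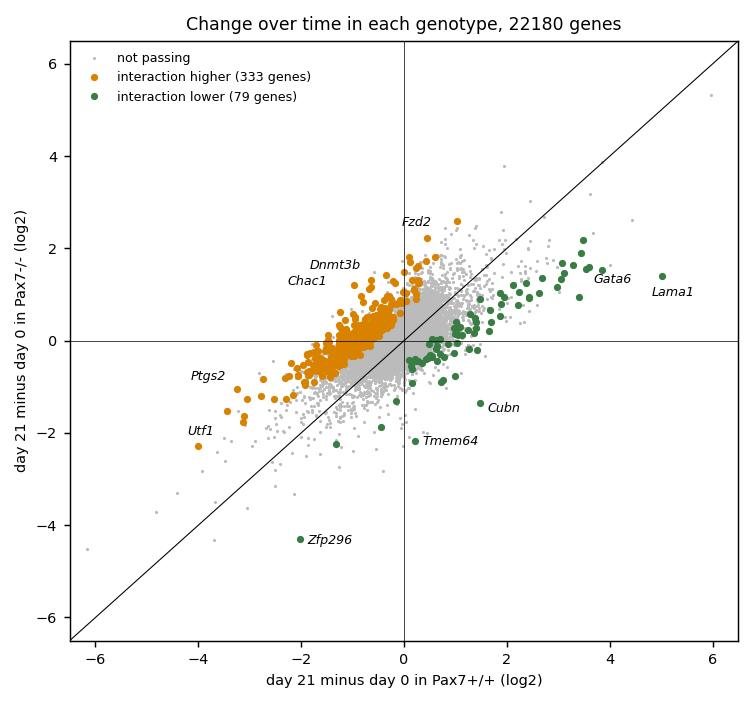
Change between day 0 and day 21 of each of 22180 genes, in Pax7-/- cells on the vertical axis and in Pax7+/+ cells on the horizontal axis, both in log2 and from the fit with the array kind. Points are genes, the diagonal marks equal change, and the 333 higher genes lie above it and the 79 lower genes below it.

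These counts rested on the array kind. Without it in the model 0 genes passed, with 260 at an unadjusted p under 0.05, against 3025 with it. From the 12 arrays alone, without those of day 7 to estimate the spread, 104 genes were higher and 27 lower. When each array was divided by its standard deviation, 251 were higher and 108 lower, so the share of calls that were higher was 69.9%, against 80.8% in the fit reported here. The 333 became 194 and 219 without Pax7-/- day 0 replicates 1 and 3, 206 without Pax7-/- day 21 replicate 2, and 136 and 220 without Pax7+/+ day 0 replicates 1 and 2. The 79 became 51 without Pax7-/- day 0 replicate 3, 51 without Pax7-/- day 21 replicate 2, and 52 and 49 without Pax7+/+ day 0 replicates 1 and 2. Highly expressed genes leaned to the higher side, with a median interaction of 0.16 over the 5545 genes whose mean value was past the 75th percentile. For lists of highly expressed genes this value, beside 0 over all genes, is the background of the median.

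Several genes of the basement membrane and of primitive endoderm were among those with the most negative interactions, beside genes of other kinds described further on. Lama1, which encodes the alpha 1 chain of laminin, had the most negative one of all named genes. In Pax7-/- cells Lama1 read 9.16 on the narrow and 10.59 and 10.67 log2 on the wide arrays of day 21, against 7.87 and 7.93 on the narrow and 9.41 on the wide arrays of day 0. In Pax7+/+ cells it read 10.99 and 10.77 on the narrow and 11.34 on the wide arrays of day 21, against 5.62 and 5.62 on the narrow and 6.82 on the wide arrays of day 0. On both kinds of array the 4 groups did not overlap, with Pax7+/+ day 0 lowest and Pax7+/+ day 21 highest. The change came to 1.41 in Pax7-/- cells and 5.01 in Pax7+/+ cells, and the interaction was -3.60 ± 0.28 (SE, adjusted p = 1.23e-05).

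Lamb1, the beta 1 chain that joins Lama1 in the same laminin trimer, followed the same order of groups. It read 8.87 (narrow), 10.51 and 10.57 (wide) at day 21 in Pax7-/- cells, against 7.46, 7.39 (narrow) and 9.18 (wide) at day 0. In Pax7+/+ cells it read 10.6 on both narrow arrays and 11.39 on the wide array of day 21, against 6.58, 6.18 (narrow) and 8.27 (wide) at day 0. No groups overlapped within a kind of array, and the interaction was -2.32 ± 0.31 (adjusted p = 0.00179). Gata6, a transcription factor that sets primitive endoderm apart from epiblast, read 7.55 (narrow), 9.91 and 9.92 (wide) at day 21 in Pax7-/- cells, against 6.3, 6.36 (narrow) and 8.2 (wide) at day 0. Pax7+/+ cells had 8.67, 8.76 (narrow) and 10.42 (wide) at day 21, against 5.67, 5.45 (narrow) and 5.96 (wide) at day 0. The groups stood in the order seen for Lama1, and the interaction was -1.99 ± 0.39 (adjusted p = 0.0147). Srgn, the proteoglycan serglycin, had the same order and an interaction of -2.46 ± 0.22.

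**Figure D2:**
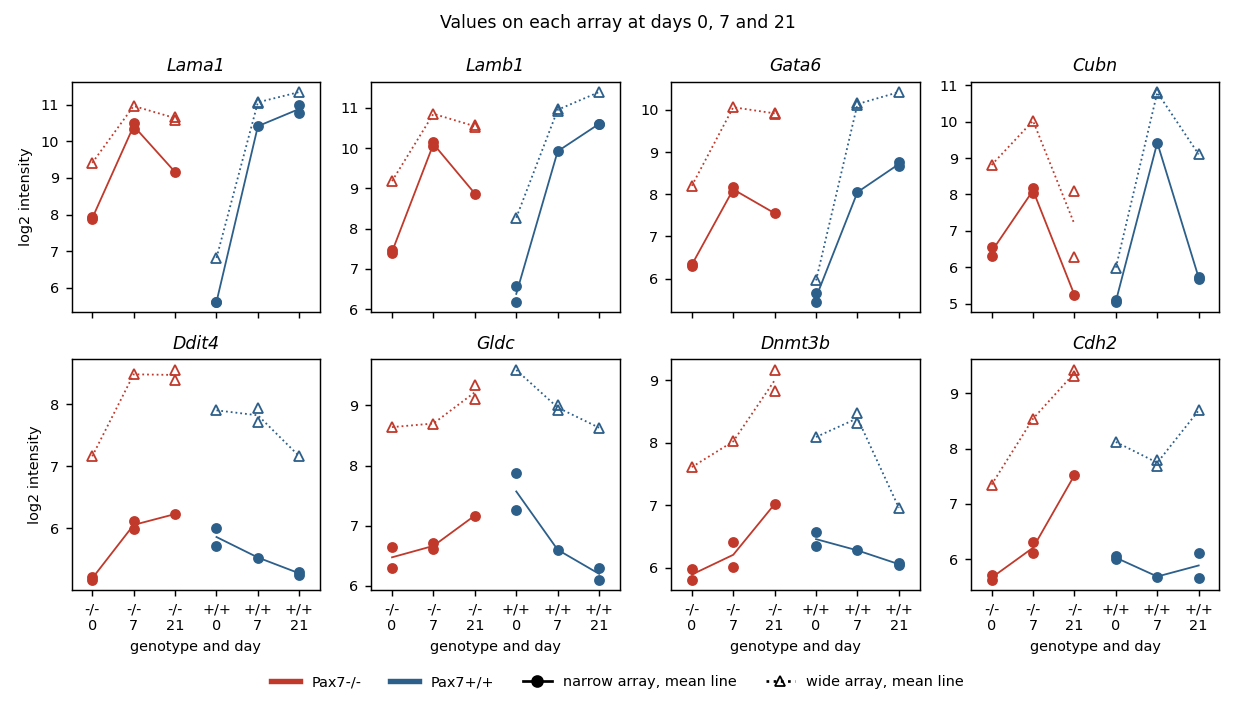
Log2 intensity of 8 genes on every array, by genotype and day. Filled circles are narrow arrays and open triangles wide arrays, and lines join the means of a kind of array. In the upper row Lama1, Lamb1, Gata6 and Cubn start higher and end lower in Pax7-/- than in Pax7+/+ cells within each kind of array, and in the lower row Ddit4, Gldc, Dnmt3b and Cdh2 end higher in Pax7-/- cells. The first group of each panel is Pax7-/-, at days 0, 7 and 21.

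The list of parietal endoderm and basement membrane genes held 18 measured genes, of which 8 were lower (0.356% of all genes were), 0 higher and 10 did not pass, with a median interaction of -1.13 against 0 over all genes. Its median change was 1.10 in Pax7-/- cells and 1.88 in Pax7+/+ cells. The genotype difference, Pax7-/- minus Pax7+/+, had a list median of 0.46, -0.07 and -0.75 at days 0, 7 and 21. Beside the genes above, the nidogen gene Nid2 (-1.63 ± 0.17), the third laminin chain gene Lamc1 (-1.11 ± 0.25), Sparc (-1 ± 0.17), which encodes a collagen-binding matrix protein, and the podoplanin gene Pdpn (-0.59 ± 0.13) passed. Nid2 differed from the laminins within each genotype, with a change of -0.90 in Pax7-/- cells and 0.72 in Pax7+/+ cells. The collagen IV genes Col4a2 (-1.36 ± 0.38) and Col4a1 (-1.15 ± 0.40) did not pass. The count of 8 was 6 to 8 when 1 array was left out, and 5 from the 12 arrays alone. In bulk RNA fewer cells of a type and less RNA per cell cannot be told apart. The summed intensity of the parietal markers Lama1, Sparc, Thbd and Plat was 1980 on the narrow and 3850 to 3890 on the wide arrays of Pax7-/- day 21, and 3880 to 4220 on the narrow and 5190 on the wide arrays of Pax7+/+ day 21. At day 0 it was 1170 to 1220 on the narrow and 1960 on the wide arrays of Pax7-/- cells, and 761 to 838 and 1350 in Pax7+/+ cells. These 4 markers did not go one way: Lama1 and Sparc were lower, Plat (0.67 ± 0.51) and Thbd (0.42 ± 0.49) did not pass, and the median interaction of the 4 was -0.29.

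Enzymes that modify procollagen before secretion leaned the same way. This list of 12 genes was added after values had been seen, and 3 were lower, 0 higher and 9 did not pass, with a median of -0.67. Plod2, a lysyl hydroxylase, read 7.6 (narrow), 9.91 and 9.92 (wide) at day 21 in Pax7-/- cells, against 5.83, 6.12 (narrow) and 8.75 (wide) at day 0. The Pax7+/+ arrays gave 9.24, 9.37 (narrow) and 10.66 (wide) at day 21, against 5.42, 5.39 (narrow) and 7.83 (wide) at day 0, and the interaction was -1.98 ± 0.32. The prolyl hydroxylase subunit genes P4ha1 (-1.6 ± 0.32) and P4hb (-1 ± 0.24) also passed, and the count of 3 became 1 without Pax7+/+ day 0 replicate 1. The collagen chaperone gene Serpinh1, which is also in the parietal list, came to -0.52 ± 0.19 without passing.

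Further lists of endoderm genes, not of primitive endoderm alone, leaned the same way, with shared members. Gata4, Gata6 and Sox7 were also in the parietal list, and Dab2 was in both lists that follow, so the counts overlap. Of 14 endoderm transcription factor and adaptor genes 2 were lower, 0 higher and 12 did not pass, with a median of -0.63, which was -0.48 on narrow and -1.24 on wide arrays. Dab2, an endocytic adaptor of visceral endoderm, passed at -1.51 ± 0.22 beside Gata6, and Sox7 (-1.41 ± 0.45) and Gata4 (-1.16 ± 0.50) did not. The 2 positive members, Eomes (0.32 ± 0.23) and Cer1 (0.17 ± 0.37), did not pass either. Of 21 genes of visceral endoderm and its serum proteins 2 were lower, 0 higher and 19 did not pass, with a median of -0.79 that was -0.21 on narrow and -1.45 on wide arrays. Cubn, the endocytic receptor cubilin, read 5.24 (narrow), 8.1 and 6.27 (wide) at day 21 in Pax7-/- cells, against 6.31, 6.56 (narrow) and 8.81 (wide) at day 0. For Pax7+/+ cells the values were 5.69, 5.74 (narrow) and 9.1 (wide) at day 21, against 5.05, 5.09 (narrow) and 5.99 (wide) at day 0. Cubn therefore had less RNA at day 21 than at day 0 on every Pax7-/- array of a kind and more on every Pax7+/+ array of a kind. Its interaction was -2.82 ± 0.61 (adjusted p = 0.0271), -1.84 on narrow and -4.73 on wide arrays, and the adjusted p was 0.0503 to 0.0694 without Pax7-/- day 0 replicate 2 or 3 or Pax7-/- day 21 replicate 1. The serum protein genes Afp (-1.95 ± 0.88) and Rbp4 (-1.94 ± 0.72) did not pass. The summed intensity of the visceral markers Afp, Ttr, Amn and Apoa1 at day 21 was 502 on the narrow and 369 to 589 on the wide arrays of Pax7-/- cells, and 733 to 749 and 2250 in Pax7+/+ cells.

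Epithelial genes gave 2 lower, 0 higher and 20 not passing of 22, with a median of -0.64. Krt18, a simple epithelial keratin, had an interaction of -1.83 ± 0.31, with a change of 1.16 in Pax7-/- and 2.98 in Pax7+/+ cells. Emp2, a membrane protein of epithelia, came to -1.45 ± 0.31 and did not pass without Pax7-/- day 0 replicate 1 or 3, Pax7+/+ day 0 replicate 1 or Pax7+/+ day 21 replicate 1 (adjusted p 0.0589 to 0.0749). Krt8, the partner of Krt18, read -1.54 ± 0.47 and did not pass. Kit, the receptor of stem cell factor (-1.64 ± 0.30), the prostaglandin transporter gene Slco2a1 (-1.64 ± 0.22) and the lysosomal protease gene Lgmn (-1.63 ± 0.31) completed the genes with the most negative interactions, together with Tmem64, Zfp296, Cdkn1c and Epas1 described below.

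Tmem64 and Zfp296 had negative interactions of another shape, since Pax7-/- minus Pax7+/+ was 2.27 and 2.17 at day 0 and -0.11 and -0.12 at day 21. Tmem64, a transmembrane protein gene, read 5.52 (narrow), 7.83 and 7.6 (wide) at day 21 in Pax7-/- cells, against 7.67, 7.9 (narrow) and 9.79 (wide) at day 0. Its Pax7+/+ values were 5.75, 5.77 (narrow) and 7.66 (wide) at day 21, against 5.63, 5.4 (narrow) and 7.53 (wide) at day 0. Pax7-/- day 0 was thus the 1 group that stood apart, and the interaction was -2.38 ± 0.17 (adjusted p = 8.94e-06). Zfp296, a zinc finger gene active in stem cells, read 5.6 (narrow), 6.03 and 5.68 (wide) at day 21 in Pax7-/- cells, against 9.61, 9.44 (narrow) and 10.37 (wide) at day 0. Pax7+/+ cells had 5.63, 5.75 (narrow) and 5.48 (wide) at day 21, against 7.26, 7.08 (narrow) and 8.58 (wide) at day 0. Both genotypes had less Zfp296 RNA at day 21, from a higher starting level in Pax7-/- cells, and the interaction was -2.28 ± 0.39 (adjusted p = 0.00649).

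Genes of the amino acid and endoplasmic reticulum stress response were among the higher genes. In this response the transcription factor Atf4, made when amino acids run short or proteins misfold, switches on genes for amino acid import, serine and cysteine synthesis and tRNA charging through a composite C/EBP-ATF element. Of 27 measured genes 10 were higher (1.5% of all genes were), 0 lower and 17 did not pass, with a median interaction of 0.51. The median change was 0.11 in Pax7-/- cells and -0.53 in Pax7+/+ cells. Atf4 itself was higher by 0.93 ± 0.18. Ddit4, an inhibitor of the growth kinase complex mTORC1, read 6.23 (narrow), 8.39 and 8.55 (wide) at day 21 in Pax7-/- cells, against 5.17, 5.22 (narrow) and 7.16 (wide) at day 0. The Pax7+/+ arrays gave 5.3, 5.25 (narrow) and 7.16 (wide) at day 21, against 6.01, 5.71 (narrow) and 7.9 (wide) at day 0. The genotypes changed in opposite directions on both kinds of array, and the interaction was 1.80 ± 0.18 (adjusted p = 0.000201).

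Chac1, an enzyme that degrades glutathione and a target of Atf4, had an interaction of 2.18 ± 0.42 (adjusted p = 0.0136). It read 6.76 (narrow), 6.99 and 7.13 (wide) at day 21 in Pax7-/- cells, against 6.31, 6.05 (narrow) and 4.82 (wide) at day 0. For Pax7+/+ cells the values were 6.69, 6.29 (narrow) and 6.88 (wide) at day 21, against 7.5, 7.47 (narrow) and 7.8 (wide) at day 0. Of these 4 groups only Pax7-/- day 0 had its wide array below its narrow ones, and the interaction was 1.58 on narrow and 3.17 on wide arrays. Cth, which makes cysteine from cystathionine, read 5.5 (narrow), 6.75 and 7.09 (wide) at day 21 in Pax7-/- cells, against 6.41, 6.77 (narrow) and 8.99 (wide) at day 0. Its Pax7+/+ values were 5.03, 5.09 (narrow) and 6.46 (wide) at day 21, against 8.55, 8.35 (narrow) and 9.99 (wide) at day 0. Both genotypes had less at day 21 and Pax7+/+ cells lost more, with an interaction of 1.92 ± 0.29. The cationic amino acid transporter gene Slc7a3 (1.6 ± 0.22), the serine synthesis gene Psat1 (1.43 ± 0.23), the stress gene Herpud1 (1.30 ± 0.29), Shmt2 (1.18 ± 0.24), Aldh18a1 (0.92 ± 0.17) and Pck2 (0.91 ± 0.22) were the other members that passed. The chaperone gene Hspa5 (-0.15 ± 0.17) and the stress factor gene Ddit3 (0.28 ± 0.36) did not pass, and Creb3l1 read -1.08 ± 0.27 without passing. The count of 10 was 7 to 11 when 1 array was left out, and 4 from the 12 arrays alone.

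The enzymes that charge tRNAs in the cytosol, the aminoacyl-tRNA synthetases, are also targets of Atf4. They were added as a list after values had been seen. All 18 measured had a positive interaction, and 8 were higher (1.5% of all genes were), 0 lower and 10 did not pass. On wide arrays alone Eprs (-0.20) and Wars (-0.22) were negative. The list's median was 0.74, which was 0.90 on narrow and 0.47 on wide arrays. Its median change was -0.16 in Pax7-/- cells and -0.83 in Pax7+/+ cells. Nars, which charges asparagine tRNA, read 7.38 (narrow), 9.51 and 9.6 (wide) at day 21 in Pax7-/- cells, against 7.59, 7.74 (narrow) and 9.75 (wide) at day 0. Pax7+/+ cells had 7.29, 6.82 (narrow) and 9.53 (wide) at day 21, against 9.14, 8.98 (narrow) and 10.53 (wide) at day 0. Pax7+/+ day 0 was the group that stood apart, and the interaction was 1.45 ± 0.25. Lars (1.37 ± 0.24), Gars (1.22 ± 0.20), Iars (1.15 ± 0.22), Rars (1.10 ± 0.20), Vars (1.07 ± 0.17), Yars (0.98 ± 0.21) and Mars1 (0.87 ± 0.15) also passed. Among 16 mitochondrial synthetases, encoded by separate genes, 0 passed, with a median of 0.14 and a range of -0.40 to 0.58. That median was -0.09 on narrow and 0.42 on wide arrays, so on wide arrays both lists had similar medians. The mitochondrial genes also read mostly lower, nearer the array medians. For a list of this size 0 is near the 1.86% called over all genes. The difference between both lists was not tested. The count of 8 was 6 to 9 when 1 array was left out, and 3 from the 12 arrays alone.

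**Figure D3:**
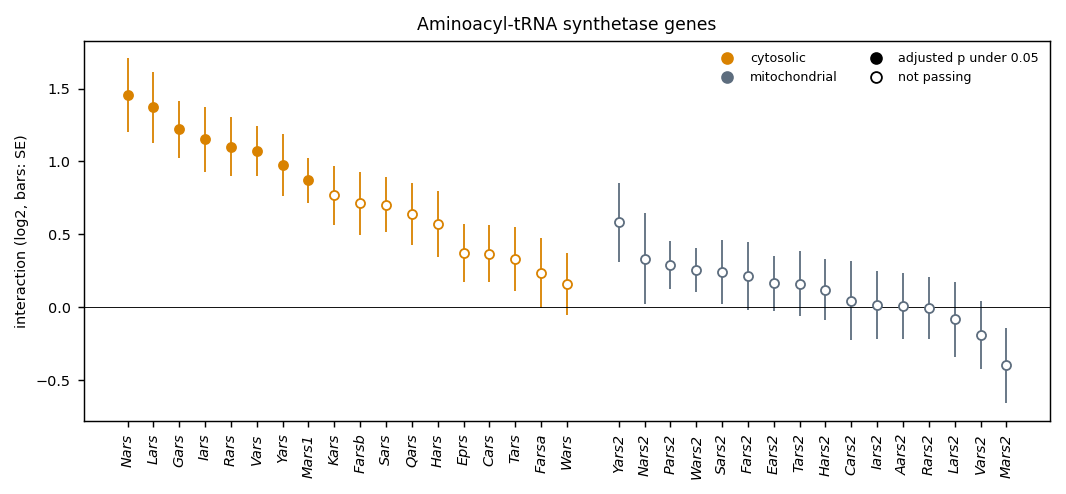
Interaction in log2 with its standard error for 18 cytosolic and 16 mitochondrial aminoacyl-tRNA synthetase genes, where filled points have an adjusted p under 0.05. All 18 cytosolic genes lie above 0, 8 of them filled, and the mitochondrial genes lie between -0.40 and 0.58, none filled. On wide arrays alone the medians were 0.47 for the cytosolic and 0.42 for the mitochondrial genes.

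The promoters of these genes were searched for the C/EBP-ATF element, spelled TGATGNAA and read on both strands, from 250 bases before to 50 bases after the RefSeq start. Promoters were at hand for 16990 of the 22180 genes. The element was present in 30.4% of the amino acid and stress list (7 of 23 promoters) and in 36.4% of the cytosolic synthetases (4 of 11), against 3.92% of all promoters. It was present in 5.73% of promoters of higher genes (15 of 262) and in 6.78% of those of lower genes (4 of 59). The list was built from known targets of this response, so these shares are a description of the list. The promoters of Chac1 (chr2:119350992-119351291), Herpud1 (chr8:94386179-94386478), Iars (chr13:49681880-49682179) and Yars (chr4:129189653-129189952), all on the plus strand of GRCm38.p6 and credited to RefSeq, are printed because these genes were higher and hold the element, which is in capitals.
Chac1: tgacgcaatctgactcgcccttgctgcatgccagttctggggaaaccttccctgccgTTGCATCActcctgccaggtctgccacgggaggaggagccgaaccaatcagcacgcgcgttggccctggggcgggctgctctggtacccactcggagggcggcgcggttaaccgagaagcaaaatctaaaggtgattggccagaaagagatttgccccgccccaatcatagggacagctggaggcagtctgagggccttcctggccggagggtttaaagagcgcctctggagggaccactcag
Herpud1: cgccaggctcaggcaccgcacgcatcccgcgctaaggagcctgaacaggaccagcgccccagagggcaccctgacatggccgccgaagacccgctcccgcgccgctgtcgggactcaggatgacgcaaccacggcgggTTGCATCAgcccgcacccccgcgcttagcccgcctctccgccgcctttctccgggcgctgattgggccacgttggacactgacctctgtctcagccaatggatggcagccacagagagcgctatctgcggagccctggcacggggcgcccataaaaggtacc
Iars: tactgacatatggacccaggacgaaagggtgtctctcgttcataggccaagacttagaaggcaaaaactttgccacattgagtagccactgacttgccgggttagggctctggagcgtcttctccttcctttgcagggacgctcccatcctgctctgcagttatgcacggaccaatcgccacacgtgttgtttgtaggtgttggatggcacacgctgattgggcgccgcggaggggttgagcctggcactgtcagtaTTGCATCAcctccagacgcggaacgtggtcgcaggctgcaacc
Yars: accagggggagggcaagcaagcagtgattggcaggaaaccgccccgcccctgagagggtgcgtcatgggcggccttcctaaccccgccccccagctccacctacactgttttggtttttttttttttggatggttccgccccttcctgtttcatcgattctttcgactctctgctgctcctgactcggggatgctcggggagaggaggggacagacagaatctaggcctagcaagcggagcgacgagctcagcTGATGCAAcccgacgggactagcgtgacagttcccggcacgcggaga
Counted from the start, the element began at position -193 in Chac1 and -112 in Herpud1, in the reading TTGCATCA, and at positions 8 in Iars (TTGCATCA) and 4 in Yars (TGATGCAA). Gars held it as TTTCATCA and Pck2 as TTACATCA.

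Genes for purine synthesis and for folate-borne carbon units feed nucleotide synthesis. Of 16 in this list 7 were higher (1.5% of all genes were), 0 lower and 9 did not pass, with a median of 0.92. The list was likewise added after values had been seen. Gldc, an enzyme of glycine cleavage, read 7.17 (narrow), 9.1 and 9.34 (wide) at day 21 in Pax7-/- cells, against 6.3, 6.65 (narrow) and 8.64 (wide) at day 0. The Pax7+/+ arrays gave 6.3, 6.1 (narrow) and 8.63 (wide) at day 21, against 7.88, 7.26 (narrow) and 9.59 (wide) at day 0. The genotypes again changed in opposite directions, and the interaction was 1.85 ± 0.22 (adjusted p = 0.000882). Mthfd1 (1.44 ± 0.24), which interconverts folate forms, and the purine synthesis genes Atic (1.25 ± 0.18), Gart (1.09 ± 0.21), Paics (1.04 ± 0.17) and Gmps (1.04 ± 0.21) passed as well. Shmt2, given above with the amino acid list, was the other member that passed. A list of subunits of the translation initiation complex eIF3 was added in the same way, with Eif3l at 1.59 ± 0.32. The list's median of 0.75 was 0.91 on narrow and 0.24 on wide arrays. Of 12 measured 4 were higher (1.5% of all genes were), 0 lower and 8 did not pass. That count was 0 to 6 when 1 array was left out, lower by more than 1.5 times without Pax7-/- day 0 replicate 1 or 3, Pax7-/- day 21 replicate 1 or 2, Pax7+/+ day 0 replicate 1 or 2, or Pax7+/+ day 21 replicate 3, and it was 0 from the 12 arrays alone.

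Genes of DNA replication were 7 higher (1.5% of all genes were), 0 lower and 16 not passing of 23. All 23 had a positive interaction, with a median of 0.61, against 0.16 over highly expressed genes. The list's median change was -0.26 in Pax7-/- cells and -0.95 in Pax7+/+ cells, and its genotype difference was -0.01, 0.04 and 0.71 at days 0, 7 and 21. Mcm5, a subunit of the replicative helicase, read 9.06 (narrow), 10.05 and 10.12 (wide) at day 21 in Pax7-/- cells, against 9.54, 9.49 (narrow) and 10.54 (wide) at day 0. For Pax7+/+ cells the values were 7.68, 7.3 (narrow) and 9.11 (wide) at day 21, against 9.66, 9.6 (narrow) and 10.46 (wide) at day 0. Pax7+/+ day 21 was lowest on both kinds of array, and the interaction was 1.41 ± 0.25. Rrm2, the small subunit of the enzyme that makes deoxynucleotides, had 1.58 ± 0.20, and the helicase genes Mcm7 (1.22 ± 0.25), Mcm2 (1.04 ± 0.21), Mcm6 (1.01 ± 0.18) and Mcm3 (0.95 ± 0.22) and the polymerase gene Pole (0.90 ± 0.16) also passed. The count of 7 became 4 without Pax7+/+ day 0 replicate 1, and 3 from the 12 arrays alone.

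Mitosis genes were 8 higher (1.5% of all genes were), 0 lower and 13 not passing of 21, with a median of 0.60. Plk1 (1.30 ± 0.30), Bub1b (0.99 ± 0.18), Top2a (0.95 ± 0.19), Aurka (0.83 ± 0.17) and Bub1 (0.82 ± 0.18), kinases and a topoisomerase of chromosome segregation, were among them. The count was 1 to 8 when 1 array was left out, and it fell by more than 1.5 times for every array except Pax7-/- day 21 replicate 3, Pax7+/+ day 0 replicate 3 and Pax7+/+ day 21 replicate 2. From the 12 arrays alone it was 1. Of 20 p53 targets and cell cycle brakes 1 passed, Cdkn1c, a cyclin-dependent kinase inhibitor expressed from the maternal allele. Cdkn1c read 5.39 (narrow), 4.54 and 4.65 (wide) at day 21 in Pax7-/- cells, against 5.62, 5.59 (narrow) and 5.54 (wide) at day 0. Its Pax7+/+ values were 5.92, 6.11 (narrow) and 7.02 (wide) at day 21, against 5.55, 5.49 (narrow) and 5.04 (wide) at day 0. Pax7+/+ day 21 was highest on both kinds of array, and the interaction was -1.75 ± 0.40 (adjusted p = 0.0362), -0.71 on narrow and -2.93 on wide arrays. It passed in 2 of the 12 fits that left out 1 array.

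Ribosome biogenesis genes were 6 higher (1.5% of all genes were), 0 lower and 24 not passing of 30, with a median of 0.49. Dkc1 (1.48 ± 0.27), C1qbp (1.35 ± 0.23), Nolc1 (1.01 ± 0.18), Nop56 (0.99 ± 0.15), Wdr75 (0.86 ± 0.15) and Nop2 (0.82 ± 0.18) passed, of which Dkc1, Nop56 and Nolc1 serve the particles that modify ribosomal RNA. Cytosolic ribosomal protein genes were 4 higher, 0 lower and 37 not passing of 41, with a median of 0.37, against 0.16 over highly expressed genes. Rpl7 (1.21 ± 0.24), Rpl14 (1.16 ± 0.23), Rps4x (0.77 ± 0.18) and Rpl10a (0.75 ± 0.18) passed, the last pair in 2 and 1 of the 12 fits that left out 1 array. Ribosomal protein genes have many near-identical processed copies, so their probe sets may read more than 1 locus. The ribosomal protein count was 0 to 11 when 1 array was left out, lower by more than 1.5 times for every array except Pax7-/- day 0 replicate 3, Pax7+/+ day 0 replicate 3 and Pax7+/+ day 21 replicate 2. From the 12 arrays alone, 3 ribosome biogenesis and 0 ribosomal protein genes passed. Taf1d, a factor of ribosomal RNA transcription whose gene also hosts small nucleolar RNAs and had 11 probe sets here, came to 1.93 ± 0.47 and passed in 2 of those 12 fits. The 4 stem cell markers whose sums are given above had a median interaction of -0.41, with 0 passing, and did not agree in sign. Pou5f1 (-0.31), Esrrb (-0.51) and Zfp42 (-0.60) were negative and Nanog (1.10) was positive. Whether remaining stem cells bear on these lists was not tested.

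Pluripotency genes went both ways. Of 26 naive pluripotency genes 3 were higher, 2 lower and 21 did not pass, and the median of 0.15 was -0.05 on narrow and 0.56 on wide arrays. Utf1 (1.73 ± 0.39), a chromatin protein of stem cells, Sox2 (1.32 ± 0.29), which also marks neural progenitors, and Sall4 (0.73 ± 0.16) were higher, in 4, 5 and 5 of the 12 fits that left out 1 array. The count of 3 was 0 to 3 in those fits, lower by more than 1.5 times for every array except Pax7-/- day 0 replicate 3, Pax7-/- day 21 replicate 1, Pax7+/+ day 0 replicate 3 and Pax7+/+ day 21 replicate 2. Sox2 read 7.88 (narrow), 9.63 and 9.74 (wide) at day 21 in Pax7-/- cells, against 8.79, 8.92 (narrow) and 10.22 (wide) at day 0. Pax7+/+ cells had 6.34, 6.75 (narrow) and 8.38 (wide) at day 21, against 8.85, 8.73 (narrow) and 10.08 (wide) at day 0. The genotypes read alike at day 0, and Pax7+/+ day 21 was lowest. Klf4, a factor maintained by LIF, read 6.15 (narrow), 8.46 and 8.59 (wide) at day 21 in Pax7-/- cells, against 7.53, 7.9 (narrow) and 9.75 (wide) at day 0. The Pax7+/+ arrays gave 7.58, 7.95 (narrow) and 9.35 (wide) at day 21, against 7.87, 7.86 (narrow) and 9.6 (wide) at day 0. Pax7-/- day 21 was lowest on both kinds of array, and the interaction was -1.15 ± 0.23. Fbxo15, an F-box gene of stem cells, was lower by -1.44 ± 0.19, while Pou5f1 (-0.31 ± 0.27) and Nanog (1.10 ± 0.46) did not pass.

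Genes of the primed epiblast were 3 higher, 0 lower and 10 not passing of 13, with a median of 0.69 and a genotype difference of 0.11, 0.07 and 1.01 at days 0, 7 and 21. Dnmt3b, a de novo DNA methyltransferase, read 7.02 (narrow), 9.16 and 8.83 (wide) at day 21 in Pax7-/- cells, against 5.98, 5.81 (narrow) and 7.61 (wide) at day 0. For Pax7+/+ cells the values were 6.04, 6.08 (narrow) and 6.96 (wide) at day 21, against 6.35, 6.57 (narrow) and 8.09 (wide) at day 0. The genotypes changed in opposite directions, and the interaction was 1.95 ± 0.28 (adjusted p = 0.0025). Cdh2, the neural and mesenchymal N-cadherin, read 7.52 (narrow), 9.31 and 9.42 (wide) at day 21 in Pax7-/- cells, against 5.71, 5.63 (narrow) and 7.35 (wide) at day 0. Its Pax7+/+ values were 5.67, 6.11 (narrow) and 8.69 (wide) at day 21, against 6.06, 6 (narrow) and 8.12 (wide) at day 0. Pax7-/- day 21 was highest, and the interaction was 1.71 ± 0.26. The kinase gene Pim2 (1.5 ± 0.29) also passed, except without Pax7+/+ day 0 replicate 1 (adjusted p = 0.0525).

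Among 11 genes of DNA methylation and its removal 3 were higher, 0 lower and 8 did not pass, namely Dnmt3b, the oxidising enzyme Tet1 (1.35 ± 0.22) and Uhrf1 (0.83 ± 0.19), which guides maintenance methylation. The related Dnmt3a read -0.04 ± 0.16 and Dnmt1 0.71 ± 0.20, both without passing. Uhrf1 passed in 5 of the 12 fits that left out 1 array. Of 21 neural progenitor genes 2 were higher, Sox2 and the intermediate filament gene Vim (0.86 ± 0.21), 0 were lower and 19 did not pass, with a median of 0.78 and 20 positive values. Vim passed in 3 of those 12 fits, in which the count of 2 was 0 to 4, lower for every array except Pax7-/- day 21 replicate 1, Pax7+/+ day 0 replicate 3 and Pax7+/+ day 21 replicates 2 and 3. Sox1 (1.40 ± 0.36), a neural plate factor, and Prtg (1.84 ± 0.67) did not pass. The summed intensity of the neural progenitor markers Sox1, Pax6 and Nes at day 21 was 278 on the narrow and 583 to 608 on the wide arrays of Pax7-/- cells, and 176 to 182 and 258 in Pax7+/+ cells. At day 0 the sums were 137 to 145 and 153 in Pax7-/- cells, and 133 to 137 and 109 in Pax7+/+ cells. Genes of differentiated neurons were 0 higher and 0 lower of 19, with a median of 0.13, which is near the 1.86% called over all genes in count.

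A few genes of matrix turnover had positive interactions, while the fibrillar collagen genes Col1a1, Col1a2 and Col3a1 did not pass. Of 24 fibroblast and fibrillar matrix genes 3 were higher, 0 lower and 21 did not pass, with a median of 0.15. Mmp2, a protease that cuts basement membrane collagen, read 7.58 (narrow), 9.39 and 9.21 (wide) at day 21 in Pax7-/- cells, against 6.2, 5.92 (narrow) and 7.95 (wide) at day 0. Pax7+/+ cells had 6.14, 5.82 (narrow) and 8.27 (wide) at day 21, against 6.36, 6.54 (narrow) and 8.4 (wide) at day 0. Pax7-/- day 21 stood above the other groups on both kinds of array, and the interaction was 1.77 ± 0.24. Thbs1 (1.51 ± 0.26), a matricellular protein, and Timp1 (1.47 ± 0.26), a metalloproteinase inhibitor, had another course, since they differed at day 0, where Pax7-/- minus Pax7+/+ was -1.37 ± 0.18 for both. Col1a1 read -0.48 ± 0.47, Col1a2 -0.33 ± 0.57 and Col3a1 -0.31 ± 0.54. The summed intensity of the fibroblast markers Col1a1, Col1a2, Col3a1, Dcn, Thy1 and Pdgfrb at day 21 was 493 on the narrow and 716 to 1170 on the wide arrays of Pax7-/- cells, and 610 to 993 and 2300 in Pax7+/+ cells. At day 0 it was 475 to 494 and 691 in Pax7-/- cells, and 610 to 654 and 1530 in Pax7+/+ cells, and the median interaction of these 6 markers was -0.25, with 0 passing.

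Ptgs2, the inducible cyclooxygenase of prostaglandin synthesis, had the largest positive interaction of the named genes. It read 5.39 (narrow), 7.98 and 7.64 (wide) at day 21 in Pax7-/- cells, against 6.66, 6.55 (narrow) and 9.15 (wide) at day 0. The Pax7+/+ arrays gave 5.27, 6.06 (narrow) and 8.14 (wide) at day 21, against 9.47, 9.22 (narrow) and 10.53 (wide) at day 0. Pax7+/+ day 0 was the group that stood apart, and the interaction was 2.21 ± 0.47 (adjusted p = 0.0244), 2.46 on narrow and 1.06 on wide arrays, passing in 5 of the 12 fits that left out 1 array. Of 20 chemokine and acute phase genes no other passed, Ccl7 reading 2.12 ± 0.69, Ccl2 2.11 ± 0.62 and Chil1 -2.35 ± 0.67. Of 20 immediate early genes 1 was higher (1.5% of all genes were), the phosphatase gene Dusp1 (1.05 ± 0.24), in 3 of those 12 fits. Septin1 (1.79 ± 0.38), a cytoskeletal GTPase gene, passed in 6 of them. The smooth muscle gene Tagln (1.07 ± 0.25), which binds actin, was the 1 gene of 15 contractile genes that passed, in 3 of them. Single calls in lists of this size are too few to set against the 1.86% called over all genes.

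Among signalling genes, Fgfr1, a receptor for fibroblast growth factors, was higher by 1.37 ± 0.18, with Spred1 (0.88 ± 0.17) and Dusp4 (0.86 ± 0.14), feedback inhibitors of ERK. These were 3 of 20 genes of the FGF-ERK list (1.5% of all genes were higher), with 0 lower and 17 not passing. The list's median of 0.47 was 0.14 on narrow and 0.66 on wide arrays. Fzd2, a Wnt receptor, had a change of 2.23 in Pax7-/- cells and 0.45 in Pax7+/+ cells and an interaction of 1.78 ± 0.30. Gja1, the gap junction protein connexin 43, came to 1.81 ± 0.22 with a change of 0.98 in Pax7-/- and -0.83 in Pax7+/+ cells, and Tmem47 came to 1.81 ± 0.23. Poglut1, which adds glucose to Notch receptors, had 1.73 ± 0.25. Of 18 Notch pathway genes 0 passed, which is near the 1.86% called over all genes and is no result about them. Igf2bp3, an RNA-binding protein of growing cells, was higher by 1.17 ± 0.20. Of the chromatin proteins of dividing and embryonic cells, the linker histone gene H1f5 (1.35 ± 0.24) and Hmga2 (1.58 ± 0.19) were higher, 2 of 11.

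Epas1, a hypoxia-inducible transcription factor, had 1 of the clearest differences at day 21. It read 6.97 (narrow), 9.3 and 9.31 (wide) at day 21 in Pax7-/- cells, against 6.04, 5.94 (narrow) and 7.81 (wide) at day 0. For Pax7+/+ cells the values were 9.14, 9.22 (narrow) and 10.42 (wide) at day 21, against 5.98, 6.12 (narrow) and 7.56 (wide) at day 0. The genotypes overlapped on narrow arrays at day 0 and were apart on both kinds at day 21, and the interaction was -1.71 ± 0.23 (adjusted p = 0.00196). In the hypoxia and glycolysis list of 21 genes it was the 1 lower gene, and the glycolytic gene Pkm (0.94 ± 0.23) was the 1 higher gene, in 2 of the 12 fits that left out 1 array. Of 19 lipid synthesis genes Fasn, the fatty acid synthase, passed (0.98 ± 0.23), also in 2 of them.

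Imprinted growth genes were 1 higher, 2 lower and 20 not passing of 23, with a median of 0.02. Igf2r, the receptor that clears the growth factor Igf2, read 6.19 (narrow), 7.24 and 7.33 (wide) at day 21 in Pax7-/- cells, against 6.51, 6.72 (narrow) and 8.48 (wide) at day 0. Its Pax7+/+ values were 7.45, 7.41 (narrow) and 9.57 (wide) at day 21, against 6.99, 6.68 (narrow) and 8.49 (wide) at day 0. The genotypes changed in opposite directions, and the interaction was -1.62 ± 0.26 (adjusted p = 0.00546). Cdkn1c was the other lower gene, and Impact, an inhibitor of the kinase that senses amino acid shortage, was higher (0.85 ± 0.20) in 3 of the 12 fits that left out 1 array. Igf2 itself read -1.07 ± 0.42 and did not pass.

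**Figure D4:**
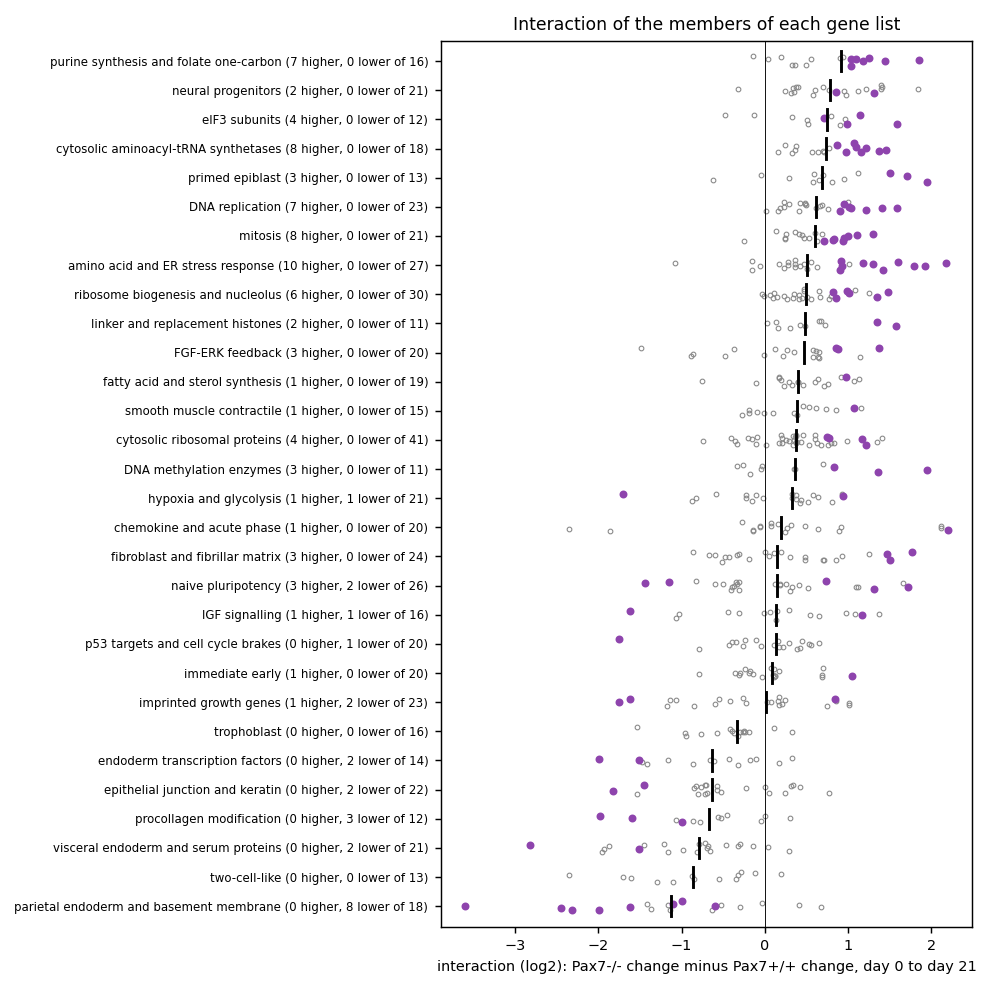
Interaction in log2 of the members of each gene list with a passing member or a median beyond 0.3 from 0. Filled points have an adjusted p under 0.05, open points do not, and bars mark list medians, which run from -1.13 for parietal endoderm and basement membrane to 0.92 for purine synthesis and folate enzymes. The purine list and others added after the values had been seen are drawn without a mark, so the order of lists is partly one of selection.

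Several lists tied to Pax7 or to early embryo states had no passing member, which for lists of this size is near the 1.86% called over all genes and is no result about them. Myogenic regulators were 0 higher and 0 lower of 19, with a median of 0.18, and Myod1 read -0.04 ± 0.20, Myf5 -0.15 ± 0.17 and Myog -0.22 ± 0.33. Sarcomere genes (28 measured, median 0.19), paraxial mesoderm genes (20, median 0.06), neural crest genes (16, median 0.06) and Hox genes (32, median -0.02) also gave 0 in both directions. At day 21 Ckm stood below the array median on wide Pax7-/- arrays and Myog and Myod1 on the wide Pax7+/+ array. At day 0 Myod1 and Ckm stood below it on the wide Pax7-/- array, and Myog, Myod1 and Ckm on the wide Pax7+/+ array. The 2-cell-like genes, which mark a rare state of stem cells, had a median of -0.86 without a passing member among 13, and 12 of them were negative. Zscan4c, a gene of that state, read 4.54 (narrow), 3.8 and 3.96 (wide) at day 21 in Pax7-/- cells, against 5.32, 5.6 (narrow) and 7.53 (wide) at day 0. Pax7+/+ cells had 5.16, 4.57 (narrow) and 3.83 (wide) at day 21, against 4.67, 4.7 (narrow) and 3.61 (wide) at day 0. Among these 4 groups the wide Pax7-/- day 0 array was highest, while at day 7 the wide Pax7-/- array read 5.81 and the wide Pax7+/+ arrays 7.57 and 8. The interaction of -2.35 ± 0.80 had an adjusted p of 0.172. Zscan4d, its near-identical neighbour, read -1.61 ± 0.58, and their probe sets may read more than 1 copy.

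Promoter letters recognised by Pax7 were searched as well. The homeodomain pair, TAAT and ATTA with 2 bases between, which reads the same on both strands, was found in 0.382% of promoters of higher genes, in 0% of lower genes and in 0.359% of all promoters. The form with 3 bases between was found in 0% of both groups, against 0.424% of all. The paired-domain core GTCACGC, on both strands, was found in 5.34% of promoters of higher genes (14 of 262), in 0% of lower genes and in 3.06% of all. The E-box CACGTG, the site of Myc and related factors, was found in 15.6% of promoters of higher genes and in 16.9% of those of lower genes, against 9.19% of all. The GATA core AGATAA, searched after values had been seen, was found in 6.11% of higher, 6.78% of lower and 11.2% of all promoters. A match is a stretch of letters and not a binding site.

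The day 7 arrays, which entered the interaction only through the shared spread and array kind, showed where the genotype difference stood on the way. Among the 333 higher genes Pax7-/- minus Pax7+/+ had a median of -0.35, 0 and 0.61 at days 0, 7 and 21, and at day 7 it was positive for 167 and negative for 166. Among the 79 lower genes the medians were 0.32, -0.10 and -0.77, and at day 7 it was positive for 29 and negative for 50. At day 7, 14 of the higher and 7 of the lower genes differed between genotypes at an adjusted p under 0.05, of 139 genes in all. These day 7 differences did not all go the way of the interaction. Of the higher genes, Mmp2 already had more RNA in Pax7-/- cells at day 7 (1.20), while Rrm2 (-0.83) and Sall4 (-0.56) had less. Lama1 read alike in both genotypes there (0.08), between 2.38 at day 0 and -1.22 at day 21. Cubn was at its highest at day 7 in both genotypes, with 8.04, 8.18 (narrow) and 10.02 (wide) in Pax7-/- cells, against 9.42 (narrow), 10.79 and 10.81 (wide) in Pax7+/+ cells. The differences at days 0 and 21 share arrays with the interaction, so they show where it lies and add no evidence of their own.

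**Figure D5:**
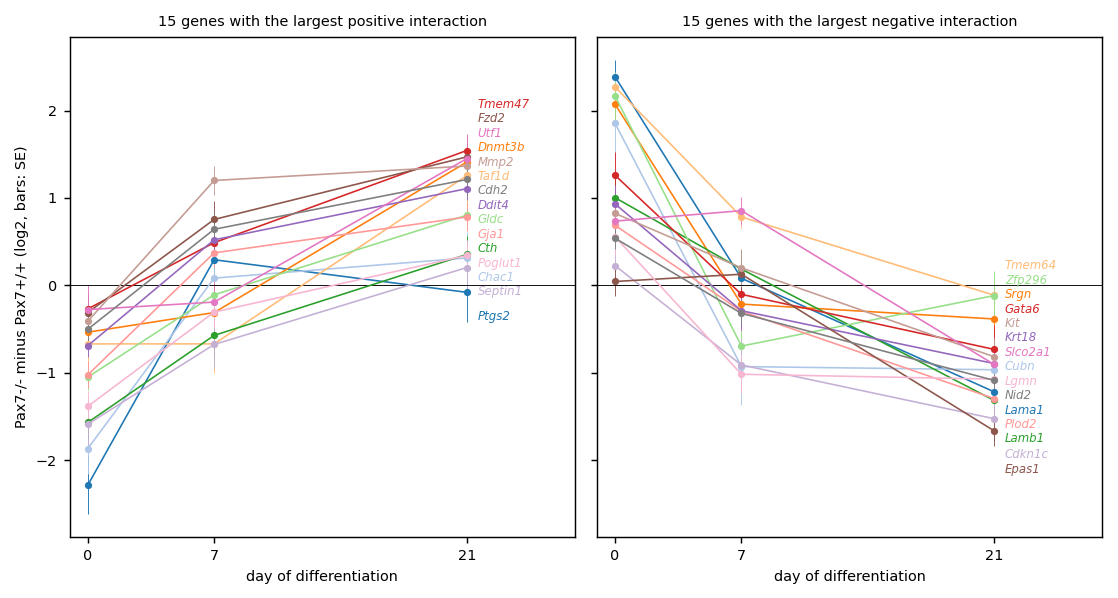
Genotype difference, Pax7-/- minus Pax7+/+ in log2 with its standard error, at days 0, 7 and 21 for the 15 genes with the largest positive and the 15 with the largest negative interaction. Positive interactions run upward from below 0 at day 0, with Ptgs2 at -2.28 there, and negative ones run downward, with Lama1 at 2.38, 0.08 and -1.22.

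Genes with an interaction lay on each of chromosomes 1 to 19 and on X. Chromosomes 8 and 11 had a positive genotype difference among highly expressed genes at both days, with a median of 0.35 at day 21 for each, against 0.15 and 0.16 at day 0. On the other chromosomes it lay between -0.10 and -0.05 at day 0 and between 0.01 and 0.14 at day 21. The median interaction was 0.19 for each of chromosomes 8 and 11, while the other chromosomes lay between 0.10 and 0.20. The share of genes called was 2.69% on chromosome 8 and 1.99% on chromosome 11, against 1.86% of all genes.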

How the data were processed

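RNA of 18 samples was read on Affymetrix mouse arrays. The authors deposited 1 log2 intensity for each probe set and array, made with RMA in Partek, per the submitters' processing notes; versions and other settings are not given in the sources used here. Of 41345 probe sets 23521 had 1 gene symbol, 1814 several and 16010 none, and each of the 22180 genes was represented by its probe set with the highest mean (1082 had several). Symbols of 22139 genes matched the GRCm38.p6 reference. No further normalization was applied. Groups follow the labelled genotype and day, and an array was called wide where its standard deviation over probe sets exceeded 1.6; what made the 2 kinds of array differ is not given.

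All 18 arrays were fitted with limma 3.58.1 in R 4.3.3, with 6 group means and the array kind (11 residual degrees of freedom), moderated by eBayes without a trend, and p-values were adjusted by Benjamini-Hochberg over 22180 genes. The fit was tested on simulated data. Alternatives changed the model, scaling, filters, probe set choice and arrays used. Promoters came from RefSeq. Figures were drawn with matplotlib 3.10.9 in Python 3.11.15.

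Named genes were the 15 largest interactions in each direction that passed, exceeded 2-fold and had the same sign on both kinds of array, without predicted genes and small RNAs; up to 4 passing members of each of 42 gene lists by smallest p; up to 2 members of the lists with extreme medians but no call; and Pax7. The members and lists were chosen with earlier results of these data known, and 5 lists, all described as added, after the values had been seen.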

Additional observations from a re-analysis of the deposited data

Results flagged for a closer look

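The change between day 0 and day 21 differed between Pax7-/- and Pax7+/+ cells, by the interaction term at an adjusted p under 0.05, for 333 genes on the higher side and 79 on the lower side, and these are listed because the genotypes' effects differ by a test of the difference itself. The named genes among them follow, with their interactions in log2. The interaction was positive for Ptgs2 (2.21), Chac1 (2.18), Dnmt3b (1.95), Taf1d (1.93), Cth (1.92), Gldc (1.85), Tmem47 (1.81), Gja1 (1.81), Ddit4 (1.80) and Septin1 (1.79). Next came Fzd2 (1.78), Mmp2 (1.77), Utf1 (1.73), Poglut1 (1.73), Cdh2 (1.71), Slc7a3 (1.6), Rrm2 (1.58), Hmga2 (1.58), Thbs1 (1.51) and Pim2 (1.5). After these stood Timp1 (1.47), Psat1 (1.43), Mcm5 (1.41), Fgfr1 (1.37), C1qbp (1.35), H1f5 (1.35), Tet1 (1.35), Sox2 (1.32), Rpl7 (1.21) and Igf2bp3 (1.17). Further positive values were those of Rpl14 (1.16), Tagln (1.07), Dusp1 (1.05), Mcm6 (1.01), Nolc1 (1.01), Bub1b (0.99), Nop56 (0.99), Fasn (0.98), Top2a (0.95) and Pkm (0.94). Then followed Pole (0.90), Spred1 (0.88), Dusp4 (0.86), Vim (0.86), Wdr75 (0.86), Impact (0.85), Uhrf1 (0.83), Aurka (0.83), Bub1 (0.82) and Rps4x (0.77). The remaining positive values were those of Rpl10a (0.75) and Sall4 (0.73). The interaction was negative for Lama1 (-3.60), Cubn (-2.82), Srgn (-2.46), Tmem64 (-2.38), Lamb1 (-2.32), Zfp296 (-2.28), Gata6 (-1.99), Plod2 (-1.98), Krt18 (-1.83) and Cdkn1c (-1.75). The remaining negative values were those of Epas1 (-1.71), Kit (-1.64), Slco2a1 (-1.64), Lgmn (-1.63), Nid2 (-1.63), Igf2r (-1.62), Dab2 (-1.51), Emp2 (-1.45), Fbxo15 (-1.44) and Klf4 (-1.15).

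Probe sets with no gene symbol or with several were not used above. Of 17824 such probe sets 88 had an interaction at an adjusted p under 0.05 (60 higher and 28 lower, 0.494%). They were counted in a fit to all 41345 probe sets, of which 310 were higher and 79 lower. The share of 0.494% lies below the share called over all probe sets in that fit and is no result about them.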

How the results depend on the processing

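The 333 higher and 79 lower genes became 0 and 0 without the array kind in the model, 104 and 27 with the 12 arrays of days 0 and 21 alone, 630 and 241 with the array kind also crossed with day, 156 and 43 with a 2-fold minimum, and 594 and 179 at an adjusted p under 0.1. The lower count was 357 on wide arrays alone and 164 after quantile normalization, and the higher count was 551 with array weights. Leaving out 1 array gave 136 to 495 higher and 49 to 96 lower genes. With the replicate number as a block the counts were 245 and 49. Same-numbered arrays correlated between -0.603 and 0.324 over 18 pairs after groups and array kind were removed. Differently numbered arrays were not compared, so whether the numbers pair the samples was not tested. The cause of these shifts was not tested. Testing every probe set, chosen after seeing the data, gave 310 and 79. Over 1944 values of the 72 named genes that passed, 1597 stayed past the threshold, 347 kept their sign without passing and 0 reversed. The largest named genes were picked for the same sign on both kinds of array, so fits to 1 kind could not reverse them. Of all 412 genes that passed, 5 reversed without the array kind in the model. Of the 72 named genes 48 passed whichever array was left out. Signal over background is not in the deposited values.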
